A study of Homo sapiens with 4 samples.

Results

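The AP-1 genes described here are JUN, JUNB, JUND, FOS, FOSB, FOSL1, FOSL2, ATF3 and BATF3, which are 9 of 20033 protein-coding genes. They were chosen by name as members of the AP-1 family, with earlier results of these data known. Other partners in AP-1 dimers, such as ATF2 and JDP2, were counted apart. Binding of Smad2 and Smad3 near them was read from anti-GFP ChIP-seq. The cells were MDA-MB-231, a line from a human breast tumour. Cells were stably transfected with a bacterial artificial chromosome (BAC) carrying SMAD2 or SMAD3 with a C-terminal localization and affinity purification (LAP) tag, which contains GFP, and were selected with Geneticin and sorted for GFP. Each tagged line also kept its untagged Smads. There were 4 conditions with 1 library each: LAP-Smad2 untreated, LAP-Smad3 untreated, and LAP-Smad2 and LAP-Smad3 after 10 ng/mL TGFβ-1 for 2 h. The difference between conditions therefore has no replicate check, and no test was run.

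AP-1 is a dimer of basic leucine zipper proteins. Jun proteins pair with each other or with Fos proteins, while Fos proteins need a Jun partner, and the dimers bind the AP-1 site TGANTCA or, with ATF partners, the related CRE site TGACGTCA. ATF3 and BATF3 belong to the same zipper superfamily and also dimerize with Jun proteins. Many AP-1 genes are immediate early genes, which are transcribed within minutes of a growth factor or stress signal. Receptor-activated Smads bind DNA weakly at the Smad box CAGAC and at GC-rich sites such as GGCGC, and AP-1 is a well-known partner of Smad3 at genes that respond to TGFβ.

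For each library there is 1 list of peaks, which gives every peak an interval, a summit, a fold (reads at the summit relative to those expected locally) and a q-value on the −log10 scale. The untreated lists held 11266 peaks (labelled LAP-Smad2) and 3511 peaks (labelled LAP-Smad3). After TGFβ-1, there were 26828 for LAP-Smad2 and 62551 for LAP-Smad3. Read totals are not part of the lists, so the depth is unknown, and a deeper library gives more peaks. Fold values of different lists share no scale, and each is given with its percentile, the percentage of peaks of the same list with a lower fold. Which Smad was tagged in which untreated library is in doubt, because sample labels and deposited names contradict each other. At the genes on the BACs, LAP-Smad2 after TGFβ-1 had 18 peaks at SMAD2 and 1 at SMAD3, and LAP-Smad3 had 1 and 52. Each treated list thus had more peaks at the gene of its own tag. The untreated library with the LAP-Smad3 label had 14 at SMAD2 and 1 at SMAD3, nearer to the treated LAP-Smad2 list. The one with the LAP-Smad2 label had 2 and 0, too few to compare. Labels are kept here as names of the untreated lists. Treated peaks were therefore compared with both untreated lists. The lists hold no expression values, so neither the cell line nor the activity of a gene could be checked.

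A peak was assigned to a gene if it overlapped the gene span of GENCODE release 44 widened by 10 kb on each side. After TGFβ-1, LAP-Smad3 had 15 peaks at 9 of the 9 AP-1 genes, where 74.3% of all protein-coding genes had a peak by the same rule. LAP-Smad2 had 10 peaks at 6 of them, JUNB, FOS, FOSB, FOSL1, ATF3 and BATF3, where 55.9% of all protein-coding genes had one. JUN, JUND and FOSL2 had LAP-Smad3 peaks alone, which was the case for 27.3% of all protein-coding genes. Without TGFβ-1, the AP-1 genes had 0 peaks in the library labelled LAP-Smad2, where 22.0% of all genes had one. They had 1, at ATF3, in the library labelled LAP-Smad3, where 9.14% had one. Both Smads had peaks after TGFβ-1 at 6 of the 9 genes, beside 47.0% of all protein-coding genes, and 0 of the 9 had LAP-Smad2 peaks alone, beside 8.88%. Genes with a peak after TGFβ-1 and none in either untreated list were 8 of the 9, beside 56.6% of all protein-coding genes.

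The span of a gene sets how many peaks it can collect. In a window of the same size for each gene, 10 kb on each side of its 5′ end, both lists after TGFβ-1 had peaks at 6 of 9 AP-1 genes. For all protein-coding genes this share was 38.5% in the LAP-Smad2 and 46.5% in the LAP-Smad3 list. The untreated lists had peaks at 0 of the 9 in this window, beside 7.93% of all genes for the LAP-Smad2 label and 5.47% for the LAP-Smad3 label. With peaks in single-copy sequence alone, LAP-Smad2 was found at 6 and LAP-Smad3 at 8 of the 9 after TGFβ-1, beside 44.5% and 56.2%, and the untreated lists at 0 (LAP-Smad2 label) and 1 (LAP-Smad3 label), beside 7.82% and 6.95%. Per 100 kb of widened gene span after TGFβ-1, the AP-1 genes held 3.29 LAP-Smad2 and 4.94 LAP-Smad3 peaks. Over all protein-coding genes, the values were 1.10 and 2.55. These densities were not matched for gene length. The AP-1 genes span 1830 to 55444 bp, and long genes weigh more in the value over all genes. The lead of LAP-Smad3 depended on the length of its list. When the LAP-Smad3 list was cut to its 26828 peaks with the highest −log10 q, 7 peaks at 5 of the genes were left. LAP-Smad2 had 10 peaks at 6 genes. The share of all protein-coding genes with a peak in the cut list was not computed. Whether the AP-1 genes differ from other genes in this is therefore unknown.

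**Figure D1:**
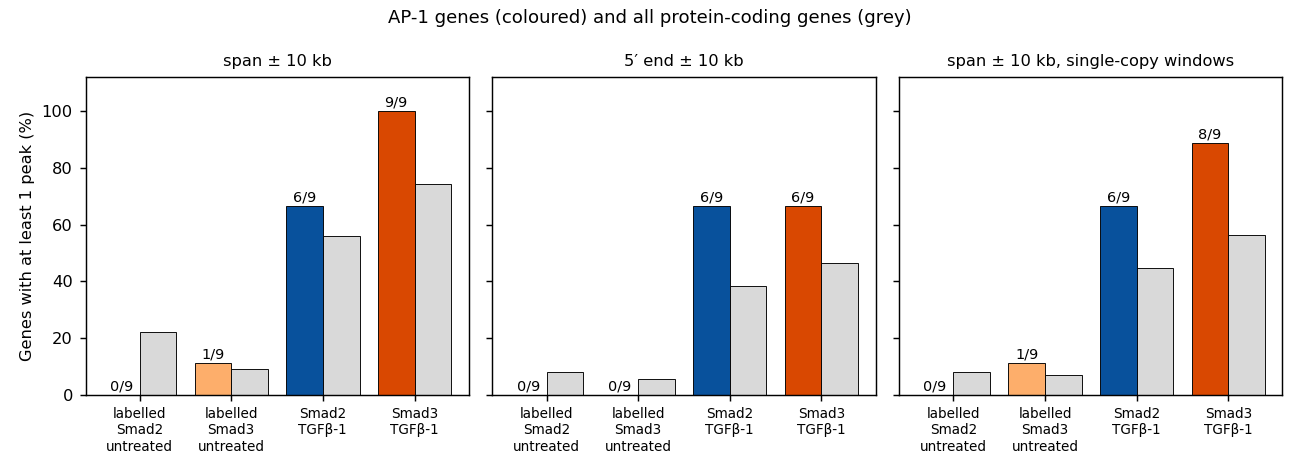
Percentage of genes with at least 1 peak (vertical axis) in each of the 4 lists, for the 9 AP-1 genes (coloured bars, with the number of genes) and for all 20033 protein-coding genes (grey bars), by gene span widened by 10 kb, by 10 kb around the 5′ end, and for peaks without another copy in hg38. After TGFβ-1, the coloured bars stand above the grey bars in all 3 panels, with 6 of 9 genes for LAP-Smad2 and 6 to 9 of 9 for LAP-Smad3.

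No LAP-Smad2 peak at an AP-1 gene overlapped a LAP-Smad3 peak after TGFβ-1. Both proteins had peaks at JUNB, FOS, FOSB, FOSL1, ATF3 and BATF3, and the number of these 6 genes with an overlapping pair was 0. Such a pair was found at 16.8% of all protein-coding genes, and at 35.7% of those with peaks in both lists. Counted over peaks, 0 of 10 LAP-Smad2 peaks overlapped LAP-Smad3, beside 21.6% of LAP-Smad2 peaks in the windows of all protein-coding genes, and 0 of 15 LAP-Smad3 peaks overlapped LAP-Smad2, beside 9.34%. Much of this background lies in repeated sequence. Among peaks whose 200 bp window has no near-identical copy elsewhere in hg38, 8.10% (LAP-Smad2) and 4.05% (LAP-Smad3) of those near genes overlapped the other list, and 17.3% of genes with both had a pair. With backgrounds of this size, 0 of 10 and 0 of 15 peaks are not set apart from other genes. The nearest summits of the 2 Smads at a gene were 702 bp apart at FOSL1, 2389 bp at FOSB, 12492 bp at BATF3, 13132 bp at FOS, 17850 bp at ATF3 and 19964 bp at JUNB.

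Of the treated peaks at AP-1 genes, 0 of 10 LAP-Smad2 peaks and 0 of 15 LAP-Smad3 peaks overlapped a peak of either untreated list. Over the windows of all protein-coding genes, the shares were 15.5% for LAP-Smad2 and 6.19% for LAP-Smad3. These shares were not recomputed for single-copy sequence alone.

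**Figure D2:**
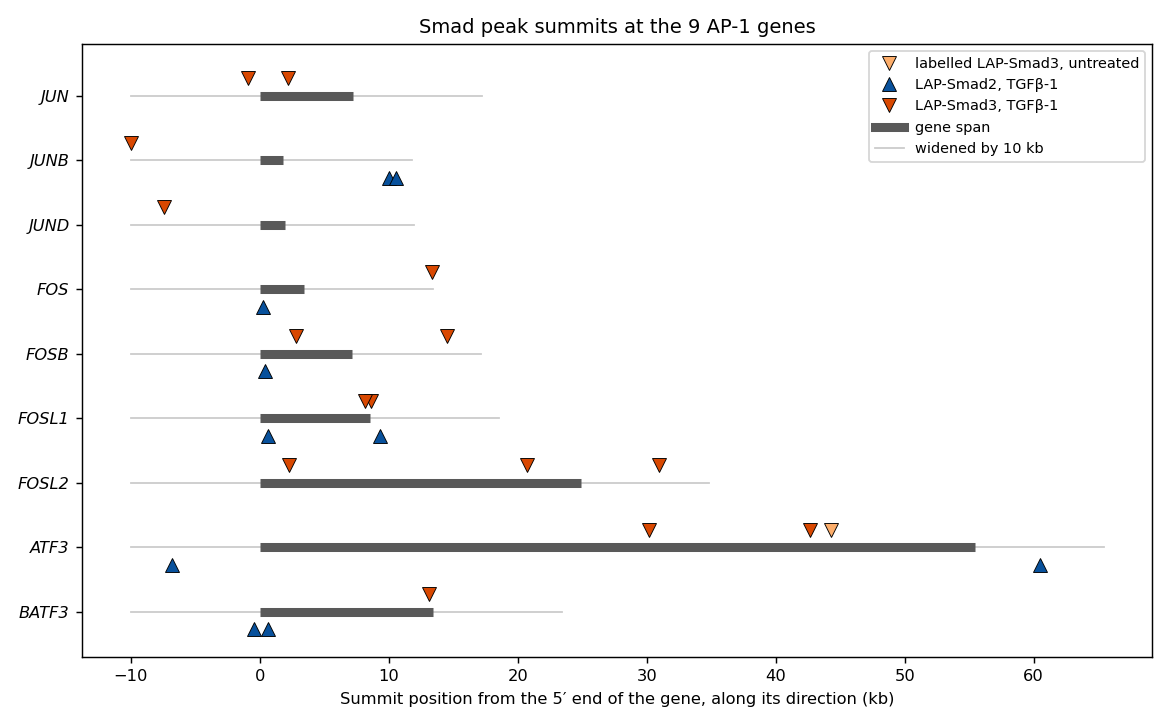
Position of each peak summit in kb from the 5′ end of its gene, along the direction of the gene (horizontal axis), for the 9 AP-1 genes; dark bars are gene spans, thin lines the widened spans, triangles pointing down LAP-Smad3 and triangles pointing up LAP-Smad2. Of 10 LAP-Smad2 summits, 5 lie within 1 kb of the 5′ ends of FOS, FOSB, FOSL1 and BATF3, beside 21.3% over all genes. The rest lie farther away, at JUNB, FOSL1 and ATF3. LAP-Smad3 summits are spread over the gene bodies and flanks, and the light triangle at ATF3 is the 1 untreated summit (LAP-Smad3 label).

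A summit within 1 kb of the annotated 5′ end of the gene was found for 5 of 10 LAP-Smad2 peaks, beside 21.3% of all pairs of a LAP-Smad2 peak and a protein-coding gene. It was found for 1 of 15 LAP-Smad3 peaks, beside 6.09% of all such pairs. The LAP-Smad2 share thus exceeded the LAP-Smad3 share over all genes too, and the difference at the AP-1 genes was not tested. The 5 LAP-Smad2 peaks were at FOS, FOSB, FOSL1 and BATF3, the last with 2. The shares over all pairs were not matched for gene length, and long genes add pairs far from a 5′ end. When the start sites of all transcripts of the gene were used, internal ones included, the counts were 5 of 10 and 5 of 15, beside 31.7% and 14.3%. The untreated ATF3 peak was within 1 kb of an internal start site and of no 5′ end, where the shares over all pairs in that list were 40.0% and 29.8%; in the other untreated list, with 0 peaks at these genes, they were 8.67% and 4.19%. The 4 further LAP-Smad3 peaks were at internal start sites of FOSB, FOSL2, ATF3 and BATF3. Among the starts of all annotated genes, the nearest to the summit belonged to the AP-1 gene itself for 5 of 10 LAP-Smad2 peaks and 5 of 15 LAP-Smad3 peaks. Among the starts of protein-coding genes alone, it did so for 6 of 10 and 11 of 15. The same shares over all genes were not computed.

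The Jun genes had few peaks at their own starts. JUN (ENSG00000177606.9), the founding member of the Jun family, spans 58776845 to 58784048 of chromosome 1 (minus strand). It had 2 LAP-Smad3 peaks after TGFβ-1 and none in the other 3 lists. The first, from 58784855 to 58785060, had a fold of 4.80 (percentile 45.1) and its summit 950 bp upstream of the start of JUN, in an exon of the long non-coding RNA LINC01135. The second, from 58781743 to 58781942, had a fold of 5.48 (percentile 66.1) and lay 2182 bp downstream of the start, in the 3′ UTR. Neither was unusual in height within its list. The 200 bp around the upstream summit hold the GC-rich Smad site but no Smad box, and are shown because this is the LAP-Smad3 peak nearest to a 5′ end. In all sequences given here, which read 5′ to 3′ on the plus strand of hg38, capitals mark a Smad box, a GC-rich Smad site, an AP-1 site or a CRE site on either strand.
JUN, LAP-Smad3 after TGFβ-1, chr1:58784898-58785097: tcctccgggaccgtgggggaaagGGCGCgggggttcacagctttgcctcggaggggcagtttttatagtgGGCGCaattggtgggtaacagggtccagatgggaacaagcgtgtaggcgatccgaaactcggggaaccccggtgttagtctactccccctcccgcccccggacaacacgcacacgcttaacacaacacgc

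JUNB (ENSG00000171223.6) spans 12791486 to 12793315 of chromosome 19 (plus strand) and encodes a Jun protein that is a weaker activator than JUN. All of its 3 peaks lay at the edges of the widened span. The LAP-Smad3 peak from 12781331 to 12781629 had a fold of 5.59 (percentile 74.9) and its summit 9982 bp upstream of JUNB, in an intron of HOOK2. The 2 LAP-Smad2 peaks had folds of 2.96 and 2.87 (percentiles 5.18 and 3.90), with summits 9982 and 10590 bp downstream of the start of JUNB. They were 319 bp from a start of PRDX2, which encodes a peroxiredoxin, and 7 bp from a start of THSD8. The LAP-Smad3 peak is the only one at an AP-1 gene with near-identical copies: its 200 bp window aligned to 44 places in hg38. Reads of such a sequence cannot be placed with certainty, and without this peak JUNB had no LAP-Smad3 peak.

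JUND (ENSG00000130522.6), which encodes the Jun protein that is expressed most steadily in resting cells, spans 18279694 to 18281622 of chromosome 19 (minus strand). It had 1 peak in the 4 lists, a LAP-Smad3 peak from 18288695 to 18289087 after TGFβ-1. Its summit was 7428 bp upstream of the start, between genes, and its fold of 3.18 was at percentile 3.21. JUND was thus the AP-1 gene with the fewest peaks.

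At the Fos genes, LAP-Smad2 peaks lay at the starts of FOS, FOSB and FOSL1 and were absent from FOSL2. FOS (ENSG00000170345.10), the classic immediate early gene, spans 75278826 to 75282230 of chromosome 14 (plus strand). Its LAP-Smad2 peak after TGFβ-1, from 75278929 to 75279244, had a fold of 3.29 (percentile 14.2) and its summit 230 bp downstream of the 5′ end, in a coding exon. Its LAP-Smad3 peak, from 75292100 to 75292307, had a fold of 5.02 (percentile 56.4) and lay 13362 bp downstream of the 5′ end, in the processed pseudogene DPPA5P4. FOSB (ENSG00000125740.15), which encodes a close relative of FOS, spans 45467995 to 45475179 of chromosome 19 (plus strand). Its LAP-Smad2 peak, from 45468327 to 45468526, had a fold of 2.93 (percentile 4.84) and its summit 384 bp downstream of the 5′ end, in the 5′ UTR. Of its 2 LAP-Smad3 peaks, the first, from 45470733 to 45470932, had a fold of 4.92 (percentile 48.8) and lay 311 bp upstream of an internal start site, in a coding exon. The second had a fold of 2.90 (percentile 1.0) and lay 3694 bp from a start of ERCC1, a DNA repair gene on the other strand. The LAP-Smad2 peaks at the starts of FOS and FOSB were thus among the lower ones of their list.

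FOSL1 (ENSG00000175592.9), which encodes FRA-1, a Fos protein known to be abundant in invasive breast cancer cells, spans 65892049 to 65900573 of chromosome 11 (minus strand). Each Smad had 2 peaks here after TGFβ-1, and the untreated lists had none. The LAP-Smad2 peak at its start, from 65899165 to 65900308, was 1144 bp wide, wider than 99.6% of its list, with a fold of 3.89 (percentile 46.3) and a −log10 q of 6.90 (percentile 82.5). Its summit was 673 bp downstream of the 5′ end, in an intron. The other 3 peaks lay together at the 3′ end of FOSL1, towards CCDC85B. The second LAP-Smad2 peak, from 65890751 to 65891421, had a fold of 3.67 (percentile 32.9) and lay in the coding exon of CCDC85B. The LAP-Smad3 peaks, from 65891720 to 65892041 and from 65892295 to 65892494, had folds of 4.76 and 4.89 (percentiles 44.4 and 47.3), 702 and 1182 bp from that LAP-Smad2 summit. FOSL1 is therefore the AP-1 gene at which the 2 Smads came closest without sharing an interval. The windows of the intron peak and of the closest pair are shown, and each holds a GC-rich Smad site within 19 bp of its summit.
FOSL1 start, LAP-Smad2 after TGFβ-1, chr11:65899800-65899999: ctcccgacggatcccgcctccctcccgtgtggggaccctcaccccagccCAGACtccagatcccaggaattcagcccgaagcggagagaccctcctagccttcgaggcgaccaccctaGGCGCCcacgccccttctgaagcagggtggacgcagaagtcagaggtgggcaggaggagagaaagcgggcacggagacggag
FOSL1 3′ end, LAP-Smad2 after TGFβ-1, chr11:65891144-65891343: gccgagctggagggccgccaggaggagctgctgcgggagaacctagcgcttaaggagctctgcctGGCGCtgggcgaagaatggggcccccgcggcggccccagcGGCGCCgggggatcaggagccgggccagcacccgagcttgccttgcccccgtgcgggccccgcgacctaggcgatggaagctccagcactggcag
FOSL1 3′ end, LAP-Smad3 after TGFβ-1, chr11:65891846-65892045: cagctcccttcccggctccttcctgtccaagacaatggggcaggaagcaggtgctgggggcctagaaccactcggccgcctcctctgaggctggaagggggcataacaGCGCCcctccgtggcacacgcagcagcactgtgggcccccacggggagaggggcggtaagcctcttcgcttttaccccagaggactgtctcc

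The wide LAP-Smad2 interval of FOSL1 was also the only interval at an AP-1 gene with an AP-1 site. The site, from 65899386 to 65899392, lay 1187 bp downstream of the 5′ end and 514 bp from the summit, outside the 200 bp window. Over whole intervals, the motif is held by 1.95% of the LAP-Smad2 and 3.83% of the LAP-Smad3 list after TGFβ-1, and a long interval has more room for it. The site is shown with its surroundings.
FOSL1 intron, chr11:65899359-65899418: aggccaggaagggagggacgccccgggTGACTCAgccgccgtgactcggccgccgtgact

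FOSL2 (ENSG00000075426.12), which encodes FRA-2, spans 28392448 to 28417317 of chromosome 2 (plus strand). It had 3 LAP-Smad3 peaks after TGFβ-1, the highest number of this list at an AP-1 gene, and none in the other lists. The peak from 28394334 to 28394813 had a fold of 5.27 (percentile 61.9), with its summit 806 bp upstream of an internal start site and 25 bp from a start of the antisense RNA FOSL2-AS1. The peak from 28412962 to 28413319 had a fold of 6.07 (percentile 80.5) and lay in the 3′ UTR. The peak from 28423339 to 28423538 had a fold of 5.27 (percentile 61.9) and lay downstream of the gene, 30961 bp from its 5′ end. All 3 were above the median fold of the list. The last window is shown because 2 Smad boxes, here read on the other strand, lie on or next to its summit.
FOSL2, LAP-Smad3 after TGFβ-1, chr2:28423309-28423508: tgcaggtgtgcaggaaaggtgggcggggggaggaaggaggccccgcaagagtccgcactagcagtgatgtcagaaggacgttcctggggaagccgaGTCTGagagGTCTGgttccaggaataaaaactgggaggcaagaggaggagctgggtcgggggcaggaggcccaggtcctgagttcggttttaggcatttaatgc

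ATF3 (ENSG00000162772.18), a stress-induced repressor that is known to partner Smad3, spans 212565334 to 212620777 of chromosome 1 (plus strand) and is the longest of the AP-1 genes. It had the most peaks: after TGFβ-1, LAP-Smad2 and LAP-Smad3 each had 2, and the untreated list with the LAP-Smad3 label had 1. The LAP-Smad3 peak from 212607883 to 212608180 had a fold of 6.62 (percentile 88.7), the highest percentile of any peak at an AP-1 gene. Its summit lay in an intron, 655 bp upstream of an internal start site of ATF3. The untreated peak, from 212609459 to 212609680, had a fold of 3.91 (percentile 52.0) and lay 698 bp downstream of an internal start site. These summits were 1598 bp apart on either side of internal starts, and the intervals did not overlap. The Smad of the untreated library is in doubt, as its deposited name gives Smad2 and it had 14 peaks at SMAD2 and 1 at SMAD3. The second LAP-Smad3 peak had a fold of 5.52 (percentile 67.6) and lay 13193 bp upstream of the nearest internal start, in an intron. The LAP-Smad2 peaks lay outside the gene, with folds of 4.27 and 3.56 (percentiles 65.2 and 26.6). One was 6833 bp upstream of the 5′ end, and the other was in the coding exon of GARIN4, beyond the 3′ end. The windows on each side of the internal starts are shown, since they are the nearest pair of an untreated and a treated peak at these genes. The treated window holds a GC-rich Smad site, and the untreated one holds none in the 200 bp on the summit but 1 within the whole interval.
ATF3, LAP-Smad3 after TGFβ-1, chr1:212607915-212608114: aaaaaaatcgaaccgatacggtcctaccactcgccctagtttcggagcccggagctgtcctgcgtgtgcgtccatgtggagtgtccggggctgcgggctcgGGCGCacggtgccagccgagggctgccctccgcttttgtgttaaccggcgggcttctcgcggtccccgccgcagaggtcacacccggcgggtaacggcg
ATF3, library labelled LAP-Smad3 untreated, chr1:212609513-212609712: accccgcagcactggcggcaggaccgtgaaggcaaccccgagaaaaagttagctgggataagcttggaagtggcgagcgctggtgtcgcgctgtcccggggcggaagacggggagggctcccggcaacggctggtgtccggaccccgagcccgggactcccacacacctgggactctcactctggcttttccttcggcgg

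BATF3 (ENSG00000123685.9), known as a factor of dendritic cell development, spans 212686417 to 212699840 of chromosome 1 (minus strand). It had 2 LAP-Smad2 peaks on either side of its 5′ end and 1 LAP-Smad3 peak at its 3′ end. The LAP-Smad2 peak from 212699135 to 212699359, with its summit 598 bp downstream of the 5′ end in an intron, had a fold of 4.45 (percentile 73.7), the highest percentile of the LAP-Smad2 peaks at AP-1 genes. The other, from 212700117 to 212700554, had a fold of 3.45 (percentile 21.2) and its summit 419 bp upstream. The LAP-Smad3 peak, from 212686628 to 212686913, had a fold of 3.31 (percentile 4.81) and lay in the 3′ UTR. Its −log10 q of 1.63 was the only value below 2 among the peaks at AP-1 genes. The window of the higher LAP-Smad2 peak is shown.
BATF3, LAP-Smad2 after TGFβ-1, chr1:212699142-212699341: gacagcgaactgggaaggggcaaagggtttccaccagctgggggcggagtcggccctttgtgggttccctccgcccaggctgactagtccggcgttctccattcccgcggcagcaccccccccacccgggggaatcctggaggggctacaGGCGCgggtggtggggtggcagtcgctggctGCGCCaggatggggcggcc

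Within their lists, the LAP-Smad2 peaks at AP-1 genes were mostly in the lower part by fold, and the LAP-Smad3 peaks were spread from the bottom to the upper part. The 10 LAP-Smad2 peaks had folds from 2.87 to 4.45, with a median of 3.51 beside 3.98 for the whole list, and 2 of 10 were above the median of the list. The 15 LAP-Smad3 peaks had folds from 2.90 to 6.62, with a median of 5.02 beside 4.97, and 8 of 15 were above the median of the list. The median percentile was 23.9 for LAP-Smad2 and 56.4 for LAP-Smad3. As the folds of different lists share no scale, these percentiles rank peaks within a list and do not compare the Smads.

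**Figure D3:**
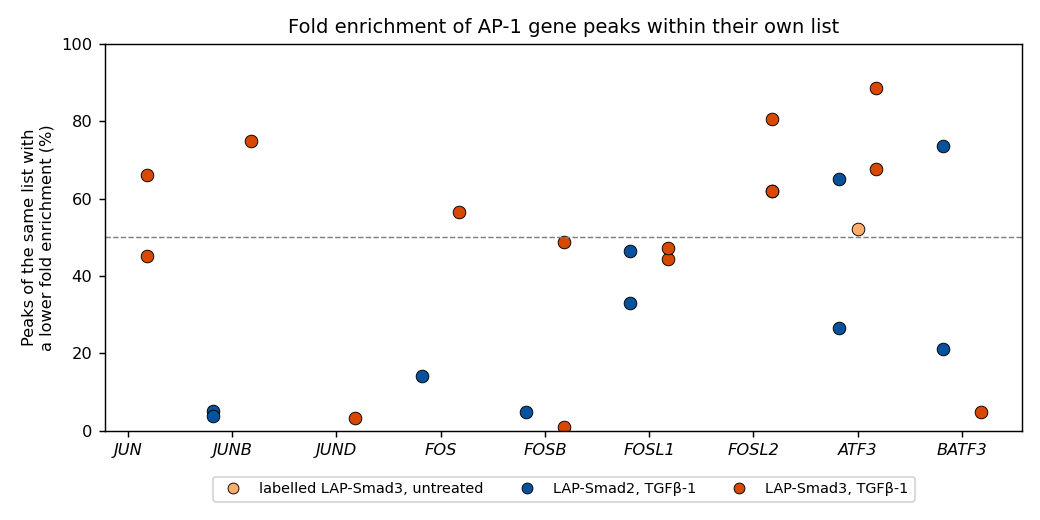
Percentage of peaks of the same list with a lower fold enrichment (vertical axis) for each of the 26 peaks at the 9 AP-1 genes (horizontal axis), coloured by list; the dashed line is the middle of each list, and 2 FOSL2 peaks at 61.9 coincide. LAP-Smad2 peaks reach from 3.90 to 73.7 and LAP-Smad3 peaks from 1.0 to 88.7, with ATF3 and FOSL2 highest.

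In windows of 200 bp on the summit, the median GC content was 70.2% (61.0% to 74.5%) at the 10 LAP-Smad2 peaks, beside a median of 65.0% over the whole list. At the 15 LAP-Smad3 peaks, it was 60.0% (48.0% to 67.0%), beside 58.5%. A near-identical copy elsewhere in hg38, with at least 90% of the bases matching, was found for 0 of 10 LAP-Smad2 and 1 of 15 LAP-Smad3 windows. Over the whole lists, which also hold peaks outside gene windows, 47.2% of LAP-Smad2 and 52.8% of LAP-Smad3 windows had such a copy. Among peaks in the windows of protein-coding genes, 10840 of 16636 (LAP-Smad2) and 21850 of 38581 (LAP-Smad3) had none.

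Smad sites were about as common at these peaks as in their lists. CAGAC was found in 3 of 10 LAP-Smad2 windows, at JUNB, FOS and FOSL1, beside 35.3% of the list, and in 4 of 15 LAP-Smad3 windows, at JUNB, JUND and FOSL2, beside 34.4%. GGCGC was found in 6 of 10 LAP-Smad2 windows, beside 57.7%, and in 6 of 15 LAP-Smad3 windows, beside 43.4%. The palindrome GTCTAGAC, the AP-1 site TGANTCA and the CRE site TGACGTCA were found in 0 of the 26 windows. They are rare in the lists too, with TGANTCA in 1.37% of LAP-Smad2 and 2.70% of LAP-Smad3 windows. Among 35116 promoters of 300 bp from RefSeq on GRCh38.p14, 45.3% hold CAGAC, 48.6% GGCGC, 7.71% TGANTCA and 1.85% TGACGTCA. Promoters of 7 of the 9 AP-1 genes were matched in that table. FOSL1 and BATF3, which both had LAP-Smad2 summits within 1 kb of the 5′ end, were not matched. Of the matched promoters, that of FOSL2 holds TGANTCA and that of JUND holds TGACGTCA. No peak of the 4 lists overlapped any of the matched promoters, and the LAP-Smad2 peaks at the starts of FOS and FOSB began downstream of them. The share of all promoters overlapped by a peak was not computed.

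**Figure D4:**
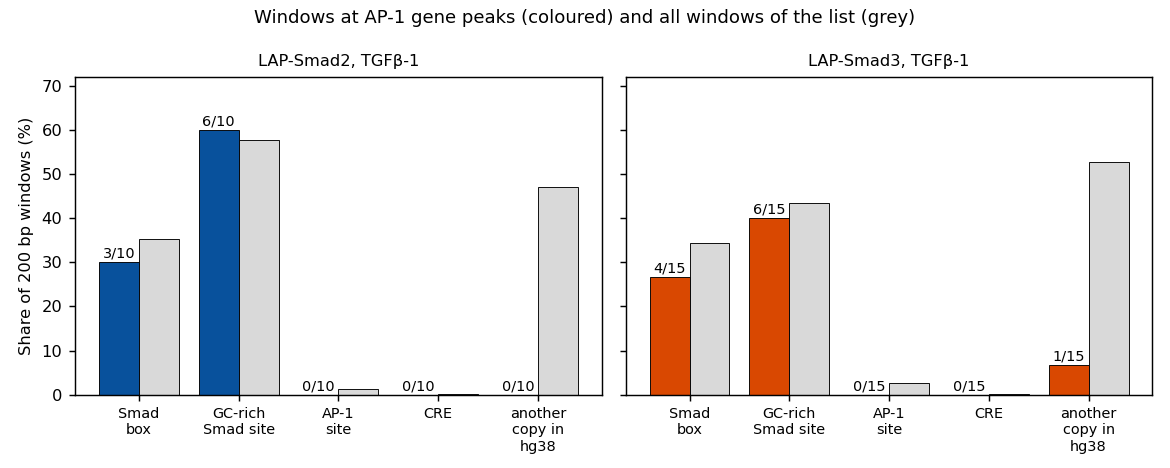
Share of 200 bp windows on the summit (vertical axis, %) with the Smad box CAGAC, the GC-rich Smad site GGCGC, the AP-1 site TGANTCA, the CRE site TGACGTCA or another copy in hg38, for peaks at AP-1 genes (coloured, with counts) and for all peaks of the list (grey), LAP-Smad2 on the left and LAP-Smad3 on the right after TGFβ-1. Shares with a Smad site are close to those of the lists. Another copy was found for 0 of 10 and 1 of 15 windows, beside 47.2% and 52.8% of the whole lists, which also hold peaks outside gene windows.

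Other genes around AP-1 were described by the same rule, with 55.9% and 74.3% of all protein-coding genes as the background for LAP-Smad2 and LAP-Smad3 after TGFβ-1. Among 13 other bZIP partners, 10 had a LAP-Smad2 and 8 a LAP-Smad3 peak. MAFG, a small Maf protein, had 10 LAP-Smad3 peaks and 0 LAP-Smad2 peaks, and MAFA had 6 and 1. BATF2 and ATF2 had 2 of each. Overlapping pairs were found at 2 of the 13, MAFA and ATF2, beside 16.8% of all protein-coding genes.

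Of 14 kinases and phosphatases upstream of AP-1, 12 had a LAP-Smad2 and 14 a LAP-Smad3 peak, and 4 (MAPK10, MAP2K4, MAPK14 and DUSP6) had an overlapping pair, beside 16.8% of all protein-coding genes. The Jun kinase genes stood first, with 4 LAP-Smad2 and 9 LAP-Smad3 peaks at MAPK10, 3 and 4 at MAPK9, and 6 and 1 at MAPK8. MAP2K4, which encodes a kinase that activates them, had 3 of each. These are long genes, and long spans collect more peaks.

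Of 15 other immediate early genes, 12 had a LAP-Smad2 and 10 a LAP-Smad3 peak. KLF6 had 1 LAP-Smad2 and 4 LAP-Smad3 peaks, ZFP36L1 1 and 3, MYC 0 and 4, and NR4A1 1 and 3. Of 15 genes known to carry AP-1 sites, 7 had a LAP-Smad2 and 10 a LAP-Smad3 peak. Among these, CCND1, which encodes cyclin D1, had 0 LAP-Smad2 and 6 LAP-Smad3 peaks. TGFB1, the gene of the ligand itself, had 3 and 2, VIM had 2 of each, and IL11 had 1 and 3. Beside the same 16.8%, overlapping pairs were found at 2 of the 15, TGFB1 and CXCL8, and at 1 of the 15 immediate early genes, IER3. MAPK14, DUSP6, CXCL8 and IER3 were named after their values were seen.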

How the data were processed

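Binding was measured by anti-GFP ChIP-seq in 4 conditions with 1 library each. Single-end reads were mapped by the authors (Bowtie2, hg38). Peaks came from MACS2, with reads lengthened to 200 bp and a q-value limit of 0.05. The control library and the tool versions are not given in the sources used here. The fold enrichment was deposited as a ratio at the summit, and the p-value and q-value as −log10 values. The deposited display score of each peak was not used.

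The members and lists were chosen with earlier results of these data known. From the lists, peaks were counted with Python 3.11.15, numpy 2.4.6 and pandas 2.3.3, by an overlap of at least 1 bp with the GENCODE release 44 gene span widened by 10 kb. All intervals lay within the chromosomes of the hg38 reference, from which windows of 200 bp on the summit were read with pysam 0.24.0 and searched for motifs on both strands. Copies were counted with minimap2 2.31. The number of alignments listed is limited, so copy numbers are minimum values. The functions passed 4 of 4 checks on simulated data. All 9 genes were named, other lists by their genes with the most peaks. Alternatives were a stricter q-value, other windows, overlaps and start sites, lists of equal length and exchanged names of the untreated lists. Removing windows with another copy was an alternative chosen after seeing the data. The windows printed were chosen outside annotated UTRs after their values were seen. The sequence of 1 window is not reported here.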

Additional observations from a re-analysis of the deposited data

How the results depend on the processing

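No paired analysis was possible because each condition has 1 library and the labels give no replicate numbers. With 1 library per condition no replicate could be left out. Of 150 values recomputed under an alternative, 127 stayed within 1.5 times the main count (or within the counting interval of a percentile). Many of these were 0 in both settings. Some could not change, such as a stricter overlap rule where no peak overlapped. The counting interval treats a median percentile as a share of peaks and does not measure the spread of a median. The tally is therefore no measure of stability. Without widening of the gene span, 4 LAP-Smad2 and 8 LAP-Smad3 peaks were left after TGFβ-1. With 50 kb, there were 26 and 47, the untreated list with the LAP-Smad2 label had 3 peaks at 2 genes, 4 genes had an overlapping pair, and 2 LAP-Smad2 and 1 LAP-Smad3 peaks overlapped an untreated peak. Within 10 kb of the 5′ end, 8 LAP-Smad3 peaks were left, 3 of them within 1 kb of a start site, while the untreated list with the LAP-Smad3 label had 0 peaks at 0 genes and 0 near a start. With the LAP-Smad3 list cut to the length of the LAP-Smad2 list, 7 peaks at 5 genes were left, 1 of them near a start. With the 5′ end alone as the start, 1 LAP-Smad3 peak and 0 peaks of that untreated list were within 1 kb. Over whole intervals, TGANTCA was found in 1 LAP-Smad2 peak, beside 1.95% of its list, and CAGAC in 8 LAP-Smad3 peaks, beside 41.1%. GGCGC was found in 1 peak of that untreated list over the whole interval, beside 40.4%. Around the centre of the interval it was also found in 1, beside 36.3%. Larger spans and longer intervals hold more by construction. The shares of all protein-coding genes were not computed without widening, at 50 kb or with the cut list. The unknown depth limits any comparison of counts between lists.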

Other observations

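Widening the gene spans to 50 kb gave overlapping LAP-Smad2 and LAP-Smad3 peaks at 4 of the AP-1 genes. The share of all protein-coding genes with a pair at this width was not computed, and wider spans hold more peaks by construction. At the AP-1 genes, the LAP-Smad2 summit of the pair lay 23720 bp downstream of the 5′ end of JUN. Upstream of the 5′ end, it lay 24535 bp from BATF3, 47310 bp from FOSL2 and 17247 bp from FOSL1. The windows at JUN and BATF3 had another copy in hg38, while those at FOSL2 and FOSL1 did not. At FOSL1, this wider span held 5 LAP-Smad2 and 14 LAP-Smad3 peaks, and 14 was the highest LAP-Smad3 count of any AP-1 gene. The highest LAP-Smad2 count, 6, was at FOSL2. At JUND, the span held 0 LAP-Smad2 and 6 LAP-Smad3 peaks. FOS gained no peak, with 1 and 1.

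Genes with the same 4 peak counts as ATF3, the AP-1 gene with the most peaks, numbered 46 among 20009 protein-coding genes whose windows overlap no AP-1 gene. The 3 closest to it in the highest LAP-Smad3 fold percentile were CMTM7, NEURL1B and SMOC1, with 88.7, 88.7 and 88.5. SMOC1 had an overlapping pair, which ATF3, CMTM7 and NEURL1B did not.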
